A study of Homo sapiens with 3 samples.

Results

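The genes described here are 10 chemokines that intestinal epithelial cells can make, CXCL1, CXCL2, CXCL3, CXCL5, CXCL8, CXCL10, CXCL16, CX3CL1, CCL2 and CCL20. They were taken by name from a table of 60664 gene identifiers, and every one of the 10 had its own row. RNA was sequenced from Caco-2 cells, an established colon carcinoma line that serves as a model of the gut epithelium, wild type per the labels. The control library came from untreated cells, the DSS library from cells given 3% dextran sulfate sodium for 8 h, and the DSS+polydatin library from cells given 30 µM polydatin for 2 h and then polydatin together with 3% DSS for 8 h. Dextran sulfate sodium (DSS) is a sulfated polysaccharide that causes colitis when rodents drink it, and polydatin is the glucoside of resveratrol. No library of cells given polydatin alone was analysed here, nor any with erastin or a ferroptosis inhibitor. Each group is 1 library, which leaves no spread between cultures to set a difference against, so no p-value is given and each ratio compares libraries, not conditions.

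Chemokines are small secreted or membrane-anchored proteins that guide leukocytes through G protein-coupled receptors, and they are classed by the spacing of their first cysteines. CXCL1, CXCL2, CXCL3, CXCL5 and CXCL8 (interleukin-8) draw neutrophils through CXCR2. CXCL10 draws activated T cells through CXCR3 and is a classic interferon-induced gene. CCL2 draws monocytes through CCR2, and CCL20 draws dendritic cells, Th17 cells and B cells through CCR6. CXCL16 and CX3CL1 (fractalkine) differ from the others in being made as transmembrane proteins, which the proteases ADAM10 and ADAM17 can cut from the cell surface, and their receptors are CXCR6 and CX3CR1. In epithelium much of the inducible output depends on NF-κB and AP-1 at the promoter and on the decay of messenger RNAs that carry AU-rich elements.

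The libraries held between 16667622 and 18825914 counts, and a level of 1 in counts-per-million of the scaled total (CPM) corresponded to 17.4 to 18.5 counts. A gene was taken as measured when it reached a CPM of 1 in at least 1 library, which 14792 genes did. The mitochondrial share of counts was 5.31% in control, 4.77% in DSS and 4.34% in DSS+polydatin. Of 11 epithelial markers, 9 had at least 20 counts in every library, and their summed level was 7552, 9104 and 7299 CPM. The intestinal homeobox gene CDX1 was at 0 and the late enterocyte keratin KRT20 at 10, 9 and 8 counts. The homeobox gene CDX2 had 2666, 2180 and 1365 counts and was the 1 epithelial marker called lower in DSS+polydatin than in DSS, by the 1.5-fold rule given with the results. Of 12 immune markers, those at 0 in all libraries included PTPRC (CD45), MS4A1 and S100A8, and the summed level of the 12 was 7.05 CPM in control and 12.6 CPM in each of the others, with CD14, ITGAM, CSF1R and LYZ as the measured ones. LYZ had 14, 83 and 39 counts and CSF1R 39, 44 and 84. The 7 fibroblast markers summed to 45.0 to 52.1 CPM and the 5 endothelial markers to 13.5 to 24.9 CPM, with KDR and CLDN5 at 0 throughout. Within these lists single genes moved in either direction: VWF had 9, 22 and 68 counts and LUM 3, 21 and 27, while PECAM1 had 443, 297 and 166 and PDGFRB 138, 74 and 93. Some markers of other cell types were thus higher in the treated libraries, as were several chemokines, and their part in the chemokine values was not tested.

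Promoter sequences from RefSeq (GRCh38.p14) were matched for 7 of the 10 genes, CXCL1, CXCL2, CXCL3, CXCL5, CXCL8, CXCL10 and CCL20. The first sequence is the stretch just before the start of CXCL1, which overlaps no annotated exon in GENCODE 29. It is shown whole because CXCL1, CXCL2 and CXCL3 lie close together on chromosome 4 and resemble each other here, with 88.7% identity between CXCL1 and CXCL2 over the last 150 bases, 86.1% between CXCL2 and CXCL3 and 86.0% between CXCL1 and CXCL3. Capitals mark matches to the NF-κB consensus, which was read on both strands. In CXCL1 matches on the 2 strands overlap and give a run of 11 bases.
CXCL1, chr4:73869243-73869392, + strand: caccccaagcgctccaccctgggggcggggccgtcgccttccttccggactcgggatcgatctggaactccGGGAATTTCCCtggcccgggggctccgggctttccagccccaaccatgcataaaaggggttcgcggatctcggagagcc

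The next set gives 30 bases around the match in other genes of the group. CXCL2, CXCL3 and CXCL5 are shown because they carry the same 11 bases as CXCL1 but had unlike read counts. CCL20 is shown for its different form of the consensus, CXCL10 for the match nearest its start, and CXCL8 for its AP-1 match, TGANTCA, which is in capitals there.
CXCL2, chr4:74099254-74099283, − strand: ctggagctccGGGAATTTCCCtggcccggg
CXCL3, chr4:74038749-74038778, − strand: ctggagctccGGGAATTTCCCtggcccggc
CXCL5, chr4:73998749-73998778, − strand: catgagttcaGGGAATTTCCCcagcatccc
CXCL10, chr4:76023600-76023629, − strand: tctgcaacatGGGACTTCCCcaggaacagc
CCL20, chr2:227813753-227813782, + strand: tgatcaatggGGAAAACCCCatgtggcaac
CXCL8, chr4:73740420-73740449, + strand: taggaagtgtgaTGACTCAggtttgccctg

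Within 250 bases before the start, 6 of the 7 promoters held the NF-κB consensus, against 5.21% of 35116 RefSeq promoters of the same length. The match began 79 bases before the start in CXCL1, CXCL3 and CCL20, 78 bases in CXCL2 and 91 bases in CXCL5. CXCL10 held it at 177 and 122 bases. The AP-1 letters TGANTCA were found only in CXCL8 among the 7, at 137 bases, and in 6.57% of all promoters. The C/EBP letters TTGCNNAA were found only in CXCL2, at 188 bases (9.05% of all promoters). The interferon-stimulated response element, searched as GAAA tetramers 2 bases apart, was found only in CXCL10, at 221 bases (3.02%). The stretches around the matches of CXCL2, CXCL3 and CXCL5 lie inside exons that GENCODE 29 annotates from an earlier start. No match to the NF-κB consensus lay in the window of CXCL8, which says only that these letters are not there. These matches are descriptions of the letters and not evidence of binding. CXCL1, CXCL2 and CXCL3 are alike over this stretch, so their matches are not separate instances. No promoter was matched for CXCL16, CX3CL1 or CCL2, the chemokines called higher in DSS below, so the matches say nothing about them.

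Most counts of the 10 genes fell on CXCL16, CX3CL1 and CCL2, while CXCL2 and CXCL3 were low but present in every library and the other 5 genes were at the edge of detection. CXCL16, CX3CL1 and CCL2 were higher in DSS than in control. In DSS+polydatin CX3CL1 was 1.54 times DSS, just over the 1.5-fold rule, and CXCL16 was 1.22 times DSS, under it. The neutrophil chemokines and CCL20 had at most 35 counts in any library. Marked as low were CXCL1, CXCL5 and CXCL10, which stayed under 20 counts in every library, and CXCL8 and CCL20, which were under 20 in control and DSS. The highest count of CXCL1 was 17, just under that mark, and the highest of CCL20 was 22, just over it. Of the 10 genes, 7 were measured, and CXCL8 and CCL20 passed only through the DSS+polydatin library, so a difference in them was built into the filter. A higher level in such bulk RNA may come from more cells that express a gene or from more RNA per cell, which cannot be told apart.

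**Figure D1:**
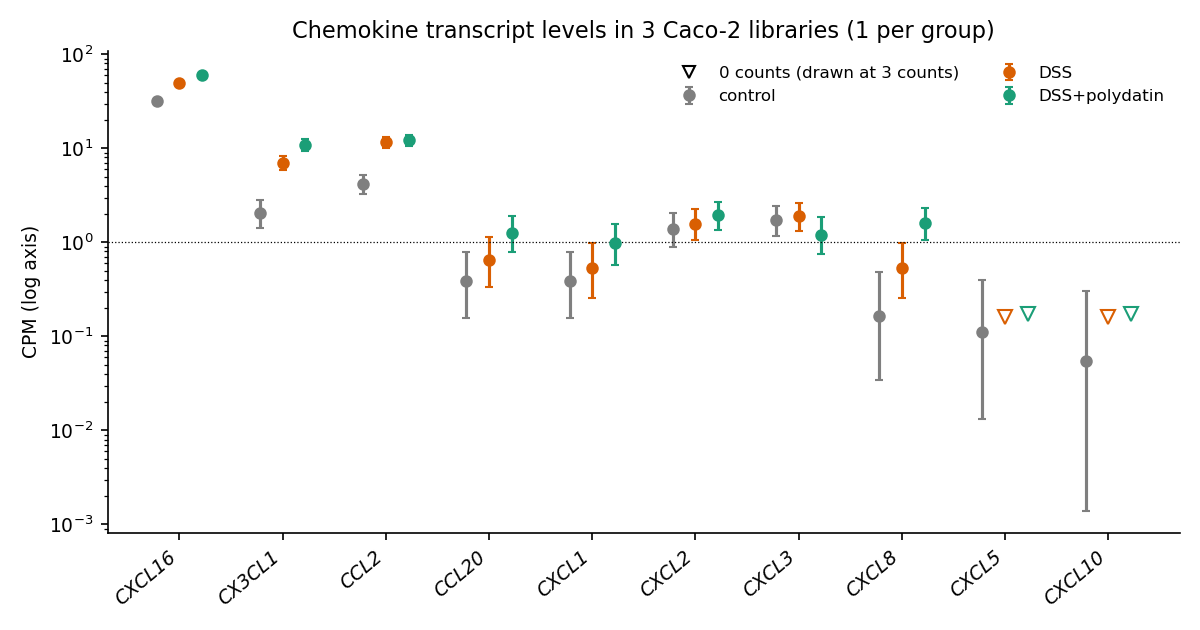
Levels of the 10 chemokines in counts-per-million (CPM, log axis), 1 point per library, with bars for the 95% exact Poisson interval of the count. Open triangles stand for 0 counts and are drawn at the level of 3 counts, and the dotted line is a CPM of 1. CXCL16 lies between 31.7 and 60.2 CPM, CX3CL1 and CCL2 are lowest in control, and the other genes stay near or under 2 CPM.

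CXCL16 (ENSG00000161921, chromosome 17, 4733526 to 4739922, − strand, GRCh38), the transmembrane ligand of CXCR6, had 576 counts in the control library, 910 with DSS and 1049 with DSS+polydatin. Its level was 31.7 CPM (29.2 to 34.4), 49.1 CPM (46.0 to 52.4) and 60.2 CPM (56.6 to 63.9), where values in parentheses are 95% intervals that cover counting error only. The 3 libraries stood in that order with no overlap of their intervals. DSS was 1.55 times control (1.39 to 1.72), DSS+polydatin 1.22 times DSS (1.12 to 1.34) and DSS+polydatin 1.90 times control (1.71 to 2.10). With a trend on GC content and transcript length removed, the DSS ratio was 1.43 and no longer reached 1.5-fold. CXCL16 overlaps MED11 in the annotation, and reads of overlapping genes cannot be separated without the strand setting.

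CX3CL1 (ENSG00000006210, chromosome 16, 57372458 to 57385048, + strand), which as a membrane-bound protein also tethers leukocytes, had 37 counts in the control library, 130 with DSS and 189 with DSS+polydatin. That corresponds to 2.04 CPM (1.43 to 2.81), 7.02 CPM (5.86 to 8.33) and 10.8 CPM (9.35 to 12.5), again in the same order with separate intervals. DSS was 3.44 times control (2.37 to 5.11), a ratio that 1.30% of measured genes exceeded. DSS+polydatin was 1.54 times DSS (1.23 to 1.95), which 6.63% of measured genes exceeded, and 5.32 times control (3.72 to 7.79). Corrected for GC content and transcript length, the ratio of DSS+polydatin to DSS was 1.44, under the 1.5-fold rule.

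CCL2 (ENSG00000108691, chromosome 17, 34255218 to 34257203, + strand), the monocyte attractant also called MCP-1, had 75 counts in the control library, 216 with DSS and 213 with DSS+polydatin. Its levels were 4.13 CPM (3.25 to 5.18), 11.7 CPM (10.2 to 13.3) and 12.2 CPM (10.6 to 14.0). Control lay below the other libraries, whose intervals overlapped almost fully. Against control the ratio was 2.82 (2.16 to 3.72) for DSS, exceeded by 1.99% of measured genes, and 2.96 (2.26 to 3.90) for DSS+polydatin. Between the treated libraries it was 1.05 (0.863 to 1.27), an interval that spans values on both sides of 1.

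CCL20 (ENSG00000115009, chromosome 2, 227805739 to 227817564, + strand), the CCR6 ligand of gut epithelium, had 7 counts in the control library, 12 with DSS and 22 with DSS+polydatin. The levels were 0.385 CPM (0.155 to 0.794), 0.648 CPM (0.335 to 1.13) and 1.26 CPM (0.791 to 1.91). The intervals of every pair of libraries overlapped, those of control and DSS+polydatin only just. The ratio was 1.68 (0.610 to 5.04) for DSS to control and 1.95 (0.923 to 4.32) for DSS+polydatin to DSS, and neither interval excluded 1. DSS+polydatin was 3.27 times control (1.35 to 9.07).

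Among the neutrophil chemokines CXCL8 (ENSG00000169429, chromosome 4, 73740506 to 73743716, + strand) had 3 counts in the control library, 10 with DSS and 28 with DSS+polydatin. On the CPM scale these are 0.165 (0.0341 to 0.483), 0.540 (0.259 to 0.993) and 1.61 (1.07 to 2.32). The DSS+polydatin interval lay above the others, while those of control and DSS overlapped. Its ratio of DSS+polydatin to DSS was 2.97 (1.40 to 6.86) and that of DSS to control 3.27 (0.841 to 18.5), at a depth where a difference between the latter libraries was not detectable. DSS+polydatin was 9.72 times control, with an interval of 3.00 to 50 around a denominator of 3 control counts.

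CXCL1 (ENSG00000163739, chromosome 4, 73869393 to 73871242, + strand) had 7, 10 and 17 counts in control, DSS and DSS+polydatin, and did not reach a CPM of 1. Its ratio was 1.40 (0.481 to 4.33) for DSS to control and 1.81 (0.781 to 4.41) for DSS+polydatin to DSS. DSS+polydatin was at 2.53 times control (0.997 to 7.21). With total-count scaling CXCL1 entered the measured genes and this last ratio was 2.72 with an interval from 1.07, so it was then called higher.

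CXCL2 (ENSG00000081041, chromosome 4, 74097035 to 74099293, − strand) had 25 counts in the control library, 29 with DSS and 34 with DSS+polydatin. Its ratio was 1.14 (0.643 to 2.02) for DSS to control and 1.25 (0.737 to 2.12) for DSS+polydatin to DSS, with overlapping levels in all libraries. CXCL3 (ENSG00000163734, chromosome 4, 74036589 to 74038807, − strand) was the one measured gene of the group with a lower CPM in DSS+polydatin than in DSS, at 31, 35 and 21 counts. Its ratio of DSS+polydatin to DSS was 0.637 (0.353 to 1.13) and that of DSS to control 1.11 (0.663 to 1.86), with intervals that include 1.

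Reads of CXCL1, CXCL2 and CXCL3 can be split or dropped by the counting, because these paralogs are near-identical in places. Their coding sequences were 94.4% identical between CXCL2 and CXCL3, 93.5% between CXCL1 and CXCL2 and 90.7% between CXCL1 and CXCL3. Of all 50-base stretches in annotated transcripts, 12.5% of those of CXCL2, 6.01% of those of CXCL3 and 4.81% of those of CXCL1 were found in another of the 10 genes. No such stretch was shared by the other 7 genes. The values of the 3 paralogs are therefore less certain than their counting intervals say.

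CXCL5 (ENSG00000163735, chromosome 4, 73995642 to 73998779, − strand) had 2 counts in control and 0 in both treated libraries. CXCL10 (ENSG00000169245, chromosome 4, 76021117 to 76023497, − strand), which overlaps ART3, had 1 count in control and 0 in both treated libraries. No ratio is given for these genes. A count of 0 allows up to 3 counts, or 0.162 CPM in DSS and 0.172 CPM in DSS+polydatin. The promoter match of CXCL5 is the same run of 11 bases as in CXCL1, CXCL2 and CXCL3, printed above.

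**Figure D2:**
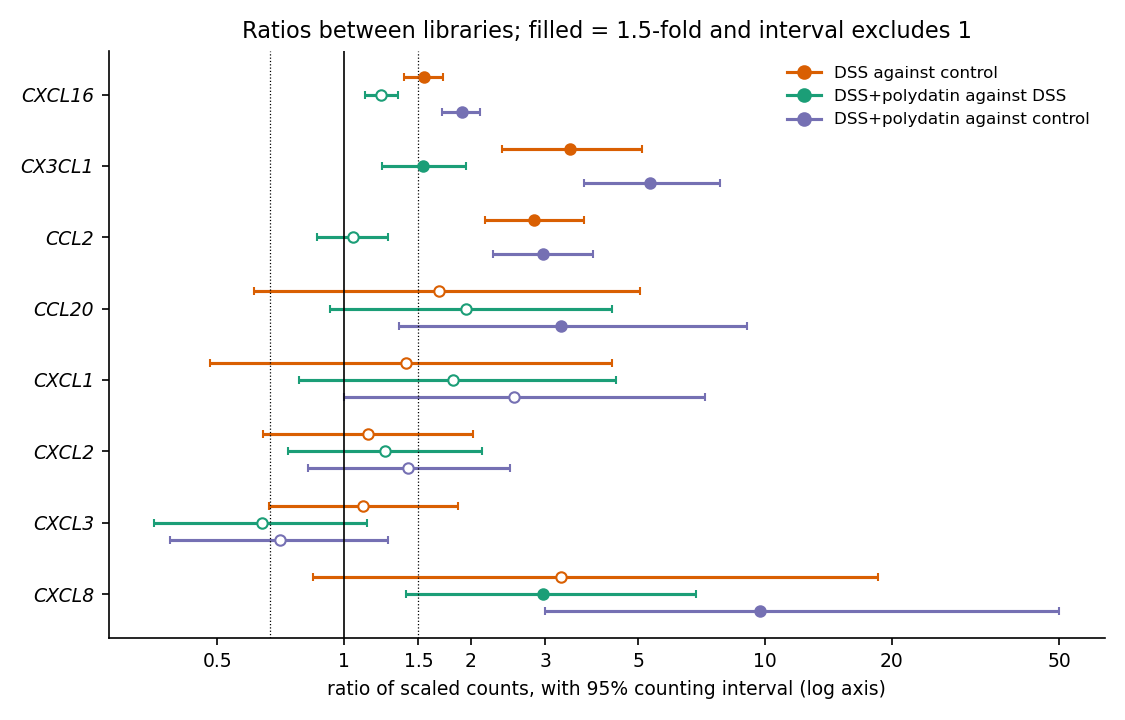
Ratio of scaled counts between libraries for the 8 chemokines with more than 3 counts in some library, on a log axis, with 95% counting intervals as bars. Solid and dotted vertical lines mark ratios of 1 and of 1.5 either way, and filled points are at least 1.5-fold apart with an interval that excludes 1. CX3CL1 is filled in all 3 comparisons, CXCL16 and CCL2 in those against control, and CXCL2 and CXCL3 in none.

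Calls followed the rule of at least 1.5-fold with an interval that excludes 1. By it 3 of the 7 measured chemokines were higher in DSS than in control (CXCL16, CX3CL1 and CCL2) and none was lower. CXCL1, CXCL5 and CXCL10 were not measured and could not be called either way. Over all measured genes 9.45% were higher and 5.81% lower by the same rule. For DSS+polydatin against DSS, CXCL8 and CX3CL1 were called higher and none of the 7 lower, beside 5.39% and 2.60% of measured genes. For DSS+polydatin against control 5 of the 7 were higher (CXCL16, CX3CL1, CCL2, CCL20 and CXCL8) and none lower, beside 16.0% and 12.4%. CXCL8 and CCL20 counted as measured only through the DSS+polydatin library. The filter thus favoured their calls against control and that of CXCL8 against DSS, which lend these tallies no support. The comparisons share libraries, so their counts are not independent of each other. The 10 genes were chosen with earlier results of these data known, so the tallies are descriptions only. Of the calls over all measured genes, 67.5% were in the higher direction for DSS+polydatin against DSS and 56.4% for DSS+polydatin against control, and with total-count scaling these shares were 82.9% and 70.5%. Corrected for GC content and transcript length they were 59.8% and 48.7%, and among genes with a CPM of at least 10 they were 50.3% and 49.1%, so against control the larger direction turned. Total-count scaling added CXCL1 to the chemokines called higher in the last comparison.

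The 7 measured chemokines had a median log2 ratio of 0.75 for DSS against control, 0.32 for DSS+polydatin against DSS and 1.56 for DSS+polydatin against control, beside −0.01, −0.01 and −0.02 over all measured genes. This median leaves out CXCL1, CXCL5 and CXCL10 and includes genes that passed the filter through 1 library, so it describes those 7 only.

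**Figure D3:**
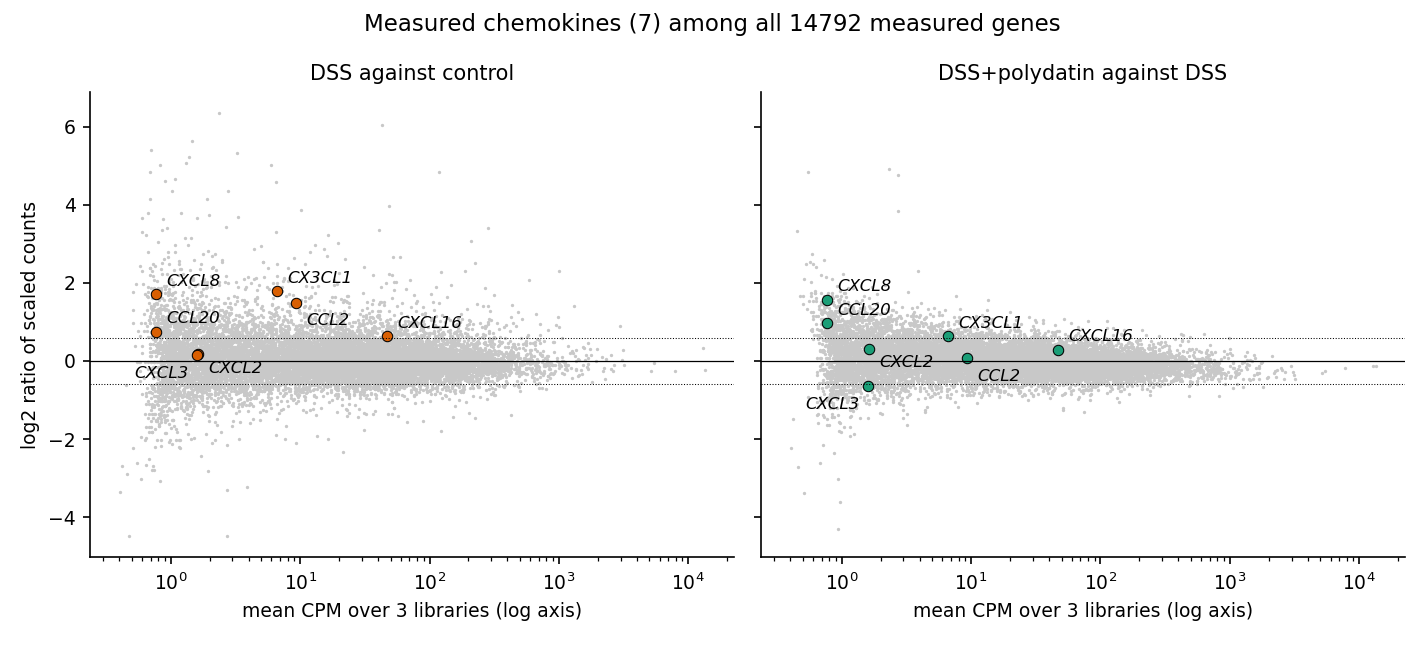
Log2 ratio of scaled counts against the mean CPM over the 3 libraries (log axis), with each measured gene in grey and the 7 measured chemokines as labelled points. Dotted lines mark 1.5-fold. CX3CL1 stands at a log2 ratio of 1.78 in DSS against control and 0.63 in DSS+polydatin against DSS, while CCL2 is at 0.07 in the latter.

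Levels between genes were compared per exonic length, in transcripts-per-million (TPM). CXCL16 was the most abundant of the 10 in each library, at 34.5 TPM in control, 55.2 TPM in DSS and 74.0 TPM in DSS+polydatin, and CCL2 was next, at 9.71, 28.3 and 32.5 TPM. The counting intervals of these genes did not overlap with each other or with those of the third gene in any library. The third place was held by CXCL3 in control (4.19 TPM) and DSS (4.79 TPM), where its interval overlapped that of CXCL2 (2.98 and 3.51 TPM) and, in DSS, also those of CX3CL1 and CCL20. In DSS+polydatin CX3CL1 took the third place at 5.41 TPM, and its interval overlapped those of CXCL2 (4.78 TPM), CCL20 (4.48 TPM) and CXCL3 (3.35 TPM). CX3CL1 had held place 7 in control, at 0.899 TPM, where the interval overlapped those of CCL20, CXCL1, CXCL8 and CXCL10. It held place 5 in DSS, at 3.20 TPM. Its move from place 5 to place 3 therefore rests on overlapping intervals. CXCL8 held place 8 in each library, at 0.218, 0.735 and 2.39 TPM, and place 7 in DSS+polydatin when the longest transcript set the length.

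The 10 genes together had 764 counts in the control library, 1352 with DSS and 1573 with DSS+polydatin, and CXCL16 accounted for 75.4% (72.2 to 78.4), 67.3% (64.7 to 69.8) and 66.7% (64.3 to 69.0) of them. The share of CX3CL1 was 4.84% (3.43 to 6.61) in control, 9.62% (8.10 to 11.3) in DSS and 12.0% (10.4 to 13.7) in DSS+polydatin. CCL2 held 9.82% (7.80 to 12.1), 16.0% (14.1 to 18.0) and 13.5% (11.9 to 15.3). The neutrophil chemokines CXCL1, CXCL2, CXCL3, CXCL5 and CXCL8 had 68, 84 and 100 counts in all. Their summed ratio was 1.21 (0.869 to 1.69) for DSS to control, 1.26 (0.937 to 1.71) for DSS+polydatin to DSS and 1.53 (1.11 to 2.12) for DSS+polydatin to control. Most reads of the group thus came from CXCL16, and CCL2 had more than CX3CL1 in every library. Count shares also follow transcript length, and by TPM CXCL16 made up 62.9%, 55.6% and 57.1% of the group, CCL2 17.7%, 28.6% and 25.1% and CX3CL1 1.64%, 3.23% and 4.18%.

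A feature that the choice of genes did not use is the AU-rich pentamer ATTTA in the part of the transcript after the coding sequence, a letter pattern of short-lived messenger RNAs. CXCL2 had 10 of them (13.9 per kb), CXCL3 7 (10.4 per kb), CXCL8 9 (7.19 per kb), CXCL1 5 (7.08 per kb), CCL20 3 (6.24 per kb) and CXCL5 11 (5.51 per kb). Each of these densities was above that of at least 92.7% of coding genes, whose median was 1.58 per kb. Densities were lower than these in the 3 genes with most counts. CCL2 had 1 pentamer (2.66 per kb, still above the coding-gene median), CXCL16 1 (1.02 per kb) and CX3CL1 2 (0.995 per kb). CXCL10 had 1 (1.23 per kb).

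Of 12 genes for proteins that control such decay or bind AU-rich elements, all measured, 2 were higher in DSS than in control and none lower, and 1 was higher in DSS+polydatin than in DSS. These counts are close to the 9.45% and 5.39% of all measured genes called higher. ZFP36 (tristetraprolin), which recruits the deadenylation machinery to ATTTA-bearing transcripts, had 188, 442 and 656 counts in control, DSS and DSS+polydatin. It was 2.30 times control in DSS (1.94 to 2.75) and 1.58 times DSS in DSS+polydatin (1.40 to 1.78). ZC3H12A (regnase-1), an endonuclease of inflammatory transcripts, was 1.91 times control in DSS (1.41 to 2.63) and 1.22 times DSS in DSS+polydatin (0.956 to 1.57). The list's median log2 ratio was −0.01 and −0.08 in these comparisons.

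Other chemokines were scarce. Of 36 further chemokine genes, 23 had 0 counts in all libraries and 2 were measured. CCL28, a mucosal chemokine made by colon epithelium, had 180, 177 and 204 counts, with a ratio of 0.964 (0.779 to 1.19) for DSS to control and 1.22 (0.996 to 1.51) for DSS+polydatin to DSS. XCL1 had 56, 38 and 64 counts and was called higher in DSS+polydatin than in DSS, at 1.79 times (1.18 to 2.75). XCL1 overlaps the ribosomal protein pseudogene RPL7AP21, and reads of the overlap cannot be told apart.

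The receptors of these chemokines were at or near 0. CXCR1, CXCR3, CXCR6, CCR2 and CCR6 had no count in any library, CXCR2 had 1, 0 and 3 counts and CX3CR1 0, 0 and 1. In these libraries transcripts of the ligands were thus found with few or none of their signalling receptors. Of 23 chemokine receptor genes 4 were measured. CXCR4, the receptor of CXCL12, had 18, 49 and 59 counts and was 2.67 times control in DSS (1.53 to 4.87) and 1.28 times DSS in DSS+polydatin (0.861 to 1.91). ACKR2, a scavenger that clears CC chemokines, had 44, 18 and 33 counts, at 0.401 times control in DSS (0.218 to 0.708) and 1.95 times DSS in DSS+polydatin (1.07 to 3.67), and overlaps 5 other annotated genes. CCR3 had 52, 105 and 118 counts and CCR1 40, 21 and 16, with ratios of DSS to control of 1.98 (1.41 to 2.82) and 0.515 (0.288 to 0.894), but these genes overlap each other and their reads cannot be told apart.

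CXCL16 and CX3CL1 are released by ADAM10 and ADAM17, and neither protease gene was called in any comparison. ADAM10 had 5567, 5893 and 5427 counts, with a ratio of 1.04 for DSS to control and 0.978 for DSS+polydatin to DSS. ADAM17 had 1743, 1858 and 1810 counts, with a ratio of 1.04 in both comparisons. Of the 7 genes of the shedding list, 6 were measured, and TIMP3 and RHBDF1 were called higher in DSS than in control. TIMP3, an inhibitor of ADAM17, had 1669, 6242 and 6519 counts and was 3.67 times control in DSS (3.47 to 3.87). RHBDF1, an iRhom that escorts ADAM17, was 1.73 times control in DSS (1.51 to 1.99). None of the 6 was called in DSS+polydatin against DSS.

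Of 18 genes for NF-κB subunits and inhibitors, all measured, 6 were higher in DSS than in control and none lower, beside 9.45% and 5.81% of all measured genes, with a median log2 ratio of 0.37. NFKBIA, the inhibitor that NF-κB itself induces, had 329, 679 and 860 counts and was 2.02 times control in DSS (1.77 to 2.31). RELB, a subunit of the noncanonical pathway, had 35, 89 and 155 counts and was 2.49 times control in DSS (1.67 to 3.80). BCL3, a nuclear partner of NF-κB, was 1.99 times control (1.44 to 2.78). The subunit genes RELA and NFKB1, chosen after their values were seen, were at 1.29 (1.16 to 1.45) and 1.05 (0.970 to 1.14) times control and were not called. For DSS+polydatin against DSS 3 of the 18 were higher and none lower, beside 5.39% and 2.60% of all measured genes (median 0.22), among them RELB at 1.85 times DSS (1.42 to 2.43) and IKBKG, the scaffold of the IκB kinase, at 1.66 times (1.28 to 2.17). The third was NFKB2, at 257, 499 and 815 counts. The 18 genes were chosen with earlier results of these data known, so these tallies are descriptions only.

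Of 12 AP-1 and C/EBP genes 10 were measured, of which 5 were higher in DSS than in control and 6 higher in DSS+polydatin than in DSS, with none lower (median log2 ratio 0.60 and 0.61). Over all measured genes 9.45% and 5.39% were higher in these comparisons. This list too was chosen with earlier results of these data known, so the contrast is a description only. The AP-1 subunit gene JUND had 282, 827 and 1296 counts, 2.87 times control in DSS (2.51 to 3.30) and 1.67 times DSS in DSS+polydatin (1.52 to 1.82). JUN had 272, 789 and 1160 counts, with ratios of 2.84 (2.47 to 3.28) and 1.56 (1.43 to 1.71). FOSB, with 13, 53 and 82 counts, stood at 4.00 (2.15 to 7.99) and 1.64 (1.15 to 2.37). CEBPB, which encodes C/EBPβ, had 640, 476 and 675 counts, lower in DSS at 0.729 times control (0.646 to 0.822) without reaching 1.5-fold, and called higher in DSS+polydatin at 1.51 times DSS (1.34 to 1.70).

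Of 25 genes for cytokines, their receptors and microbial sensors, 14 were measured, and 2 were higher and 1 lower in DSS than in control (median log2 ratio 0.12), near the 9.45% higher and 5.81% lower of all measured genes. IL1A, an alarmin that induces chemokines in neighbouring cells, had 4, 19 and 43 counts. It was 4.66 times control in DSS (1.55 to 18.8) and 2.40 times DSS in DSS+polydatin (1.37 to 4.37). TLR2, a sensor of bacterial lipopeptides, had 128, 292 and 213 counts and was 2.24 times control in DSS (1.81 to 2.77) and 0.775 times DSS in DSS+polydatin (0.646 to 0.928). IL18, with 457, 303 and 546 counts, was the gene called lower in DSS and with IL1A one of the 2 called higher in DSS+polydatin against DSS (median 0.02).

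Of 15 interferon regulators 12 were measured. For DSS against control 1 was higher, and for DSS+polydatin against DSS 1, with none lower (median log2 ratio 0.08 and 0.13). That is near the 9.45% and 5.39% of all measured genes that were higher. IRF2 was 1.54 times control in DSS (1.32 to 1.81) and IRF7, with 40, 49 and 130 counts, was the gene higher in DSS+polydatin against DSS. The interferon target CXCL10 itself was at 1, 0 and 0 counts.

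**Figure D4:**
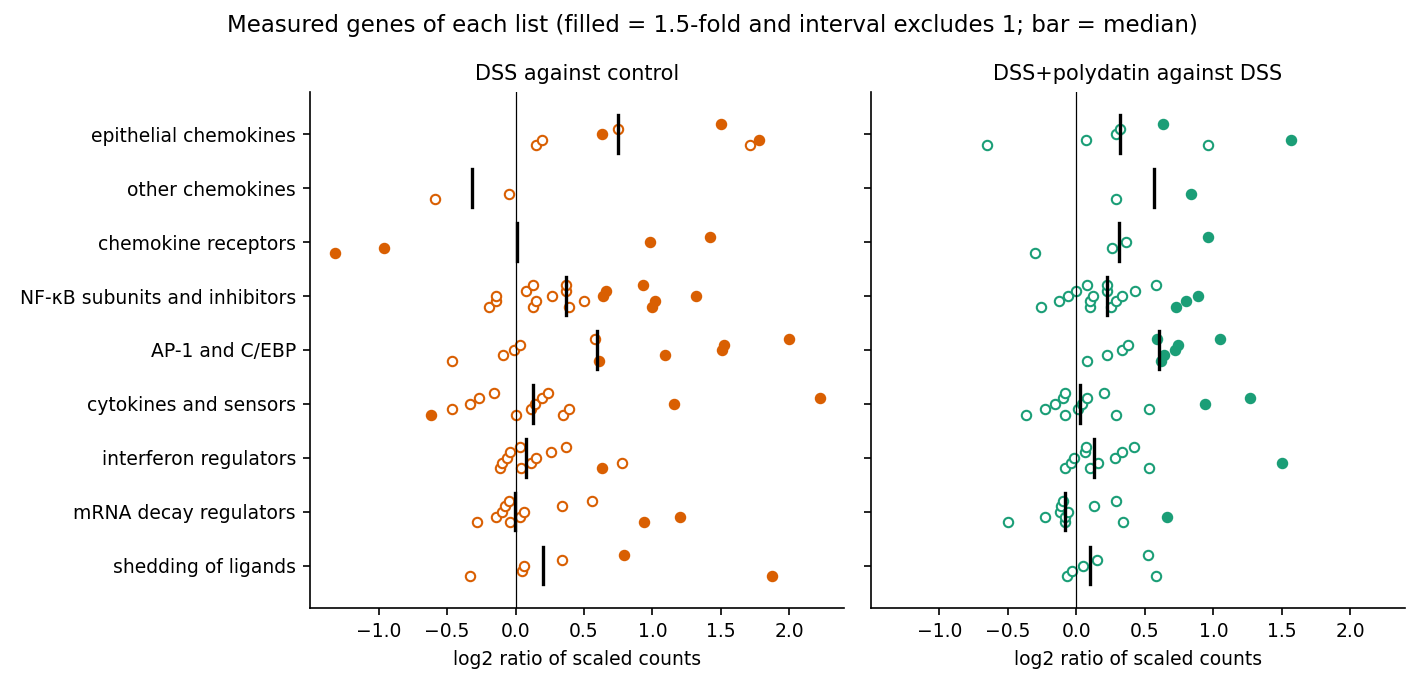
Log2 ratio of scaled counts for each measured gene of 9 lists, for DSS against control (left) and DSS+polydatin against DSS (right). Points are genes, filled when at least 1.5-fold apart with a counting interval that excludes 1, and black bars are medians of the measured genes. The AP-1 and C/EBP list has medians of 0.60 and 0.61 and the NF-κB list 0.37 and 0.22, while the interferon and decay lists lie near 0.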

How the data were processed

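The authors deposited 1 table of raw read counts per Ensembl gene for 3 Caco-2 libraries, 1 for each group. Per the submitters' processing notes, HISAT2 and GRCh38 were used. How reads were counted, by which annotation and with which strand setting, is not given in the sources used here. Columns were assigned by the labels. Symbols were matched for 60463 of 60664 identifiers, and coordinates, lengths and GC content came from GENCODE 29 (58396 identifiers).

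Counts were scaled with TMM factors (0.971, 0.984 and 1.05 for control, DSS and DSS+polydatin; edgeR 4.0.16, R 4.3.3). Ratios carry exact 95% Clopper-Pearson intervals on both counts (scipy 1.17.1, Python 3.11.15), with 0.5 added to both counts where either was 0. Levels carry exact Poisson intervals and shares exact binomial ones. No molecular identifiers are described, so reads need not be separate molecules, and intervals and the floor of 3 counts cover counting error alone. Genes were called across all 14792 measured genes at 1.5-fold. TPM used the union of exons in the GENCODE basic set. Promoters came from RefSeq. The scripts were tested on simulated counts.

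Genes named are the 10 chemokines, other chemokines and receptors with at least 20 counts, and up to 4 called genes of each list and comparison, in order of the bound closest to 1. Some that qualify are left out, and receptors of the chemokines, ADAM10 and ADAM17 were added for their roles. The members and lists were chosen with earlier results of these data known. The 7 alternatives were size factors from DESeq2 1.42.0, scaling by total counts, a CPM minimum of 10, no minimum, a 2-fold rule, 2 counts added, and removal of a cubic trend on GC content and transcript length.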

Additional observations from a re-analysis of the deposited data

How the results depend on the processing

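No alternative turned a chemokine called higher to the other side of 1, and 95 of 96 recomputed ratios of single chemokines stayed inside their counting interval. The exception was CXCL16 in DSS+polydatin against control, at 1.66 after correction for GC content and transcript length. Intervals at low counts are wide, as for CXCL8 in DSS against control (0.841 to 18.5). The alternatives could hardly move a ratio out of such an interval, so staying inside lends no support. For DSS+polydatin against DSS 1 chemokine was called higher in place of 2 under the CPM minimum of 10 and the GC content and length correction, where CX3CL1 (1.44) missed the rule in the latter, and 1 (CXCL8) under the 2-fold rule. With the CPM minimum of 10 only CXCL16, CX3CL1 and CCL2 were tested, and 3 were higher in DSS+polydatin than in control. CX3CL1 passed that minimum only through DSS+polydatin (10.8 CPM), and CCL2 only through DSS (11.7 CPM) and DSS+polydatin (12.2 CPM). The minimum thus favoured the calls of CX3CL1 and CCL2 in DSS+polydatin against control. It also favoured CCL2 in DSS against control and CX3CL1 against DSS, so these calls lend no support. Under the 2-fold rule 2 were higher in DSS than in control.

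Over all measured genes, the CPM minimum of 10 gave 749 higher and 438 lower for DSS against control (main 1398 and 859), 237 and 234 for DSS+polydatin against DSS (main 797 and 384) and 1269 and 1315 for DSS+polydatin against control (main 2367 and 1829). The 2-fold rule gave 627 and 261, 287 and 68, and 1262 and 483 in these comparisons. Total-count scaling gave 234 lower for DSS+polydatin against DSS. The CPM minimum of 10 left 10084 genes to test, and the 2-fold rule is stricter. In the comparisons of DSS+polydatin, higher calls fell more than lower ones with that minimum, and the reason was not tested. The shares over all measured genes are not matched to the level of each chemokine. Total-count scaling leaves out the TMM factors. Under it the median log2 ratio of DSS+polydatin to DSS over all measured genes was 0.08, beside −0.01 in the main setting. No paired analysis was possible because each group is 1 library, and no library could be left out. Depth limits CXCL1, CXCL5, CXCL8, CXCL10 and CCL20 most, with a floor of 3 counts at 0.162 to 0.172 CPM.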

Other observations

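A few further genes tied to chemokine output were picked after their values were seen, none of which reached a CPM of 1 in any library. CCL26 (eotaxin-3), an eosinophil attractant, had 0 counts in control and 11 in each treated library. Set against a floor of 3 control counts, DSS was 3.59-fold and DSS+polydatin 3.82-fold higher than control. These ratios are not lower bounds, since their counting intervals begin at 2.46 and 2.61. LTB, a ligand of the noncanonical NF-κB pathway, had 2, 10 and 17 counts in control, DSS and DSS+polydatin, and its ratio of DSS to control was 4.90 (1.04 to 46.0). TNF had 0, 3 and 8 counts, and DSS+polydatin was 2.78-fold higher than control against the same floor, again not a lower bound. CCL15, which overlaps CCL15-CCL14, had 2, 6 and 11 counts, with a ratio of 1.95 (0.660 to 6.41) for DSS+polydatin to DSS.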
